A study of Mus musculus and Rattus norvegicus with 24 samples.

Results

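The genes described here are 7 subunit genes of cytochrome c oxidase, the enzyme of respiratory complex IV, out of 9595 genes listed for 24 single cells. They were chosen by name: Cox6a2, Cox7a1 and Cox8b encode the heart and skeletal muscle forms of 3 small subunits, Cox6a1, Cox7a2 and Cox8a encode the ubiquitous forms, also called liver forms, of the same subunits, and Cox4i1 encodes a subunit found in most tissues and served as the reference. The cells fell into 3 groups of 8. Transplanted cells were cardiomyocytes made from a mouse embryonic stem cell line and recovered after 30 days in the heart of a neonatal rat. Cultured cells came from that same line and were kept in vitro for 30 days. Both carried Isl1-Cre, a Rosa-RFP reporter, and a GFP reporter driven by aMHC, the promoter of a myosin heavy chain of heart muscle. Adult cells were wild-type (WT) ventricular cardiomyocytes of adult rats. Each stem cell group is a single line, and the adult group differs from it in species as well as in age and origin, so these cannot be told apart. Letters A to H only name the cells of a group.

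Cytochrome c oxidase takes electrons from cytochrome c, reduces oxygen to water and pumps protons across the inner mitochondrial membrane. Its catalytic core is encoded by mitochondrial DNA, while the small subunits around it are encoded in the nucleus and tune its assembly, its stability and its response to the energy state of the cell. Subunits 6A, 7A and 8 each exist in a muscle and a ubiquitous form, and in the rodent heart the muscle forms take over from the ubiquitous forms around and after birth.

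On the mouse build mm10, with the GENCODE M21 annotation, all 3 muscle forms lie on chromosome 7 and the ubiquitous forms are spread over other chromosomes. All 7 are protein-coding genes, and counts are over their exons. Cox6a2 spans 7:128205435-128206387 on the minus strand, Cox7a1 7:30184144-30186078 on the plus strand and Cox8b 7:140898945-140900446 on the minus strand. Cox6a1 spans 5:115345642-115348981, Cox7a2 9:79755361-79759878 and Cox8a 19:7215153-7217616, all on the minus strand. Cox4i1 spans 8:120668222-120674207 on the plus strand. Exons of Cox6a2 share 70 bases with Itgad and those of Cox4i1 share 154 bases with Emc8, both on the opposite strand, and since no strand setting is stated, reads of these overlaps could belong to either gene.

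The forms of a pair are distinct in sequence, which bears on whether a read can be told to come from one or the other. Over the aligned coding bases of the main transcripts, Cox6a2 and Cox6a1 were identical at 65.3%, Cox7a1 and Cox7a2 at 64.5%, and Cox8b and Cox8a at 57.1%. The longest runs of bases found in both forms of a pair were 12, 12 and 10 bases, all coding and all far shorter than the transcripts, and are shown here 5′ to 3′.
Cox6a2 and Cox6a1: accaagcccttc
Cox7a1 and Cox7a2: tgaaaggcgggg
Cox8b and Cox8a: tggagagcta
The first covers bases 297 to 308 of the Cox6a2 transcript and 281 to 292 of that of Cox6a1. Processed copies of the ubiquitous forms Cox6a1, Cox7a2 and Cox8a and of Cox4i1 exist elsewhere in the mouse genome. How reads that match several places were counted is not stated. Any effect on the levels of these genes, and so on the shares of the muscle forms, was not tested.

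Promoters are shown because the muscle forms were all high in the transplanted and adult cells described below and low or without counts in cultured cells. Of the 7 genes, 5 had an entry in the RefSeq promoter table (build GRCm38.p6), and Cox6a2 and Cox4i1 did not. The 250 bases before the RefSeq start are given 5′ to 3′ on the gene's strand, first for the muscle forms Cox7a1 (chr7:30183921-30184170, plus strand) and Cox8b (chr7:140900447-140900696, minus strand), then for the ubiquitous forms Cox6a1 (chr5:115348959-115349208), Cox7a2 (chr9:79759854-79760103) and Cox8a (chr19:7217617-7217866), all on the minus strand. Capitals mark matches on either strand to an E-box (CANNTG), to the core of the NRF-1 site (CGCANGCG) or to the ETS core of the NRF-2 site (CCGGAA).
Cox7a1: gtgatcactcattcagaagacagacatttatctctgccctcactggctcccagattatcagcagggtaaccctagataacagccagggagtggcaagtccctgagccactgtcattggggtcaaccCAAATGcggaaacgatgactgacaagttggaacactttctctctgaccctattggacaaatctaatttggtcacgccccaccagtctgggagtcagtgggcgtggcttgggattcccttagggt
Cox8b: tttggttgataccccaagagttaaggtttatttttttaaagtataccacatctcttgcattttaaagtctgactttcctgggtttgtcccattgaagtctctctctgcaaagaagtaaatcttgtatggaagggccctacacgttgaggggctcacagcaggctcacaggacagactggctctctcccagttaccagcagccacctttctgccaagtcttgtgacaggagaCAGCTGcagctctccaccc
Cox6a1: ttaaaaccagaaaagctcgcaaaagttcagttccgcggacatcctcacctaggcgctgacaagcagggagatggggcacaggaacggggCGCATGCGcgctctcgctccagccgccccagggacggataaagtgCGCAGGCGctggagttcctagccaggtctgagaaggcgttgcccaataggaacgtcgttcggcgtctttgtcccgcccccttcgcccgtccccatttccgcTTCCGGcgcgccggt
Cox7a2: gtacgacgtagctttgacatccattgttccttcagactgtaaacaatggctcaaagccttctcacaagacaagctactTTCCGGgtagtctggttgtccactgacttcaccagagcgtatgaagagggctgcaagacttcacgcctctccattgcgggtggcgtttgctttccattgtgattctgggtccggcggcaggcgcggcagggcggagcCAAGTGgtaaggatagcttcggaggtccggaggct
Cox8a: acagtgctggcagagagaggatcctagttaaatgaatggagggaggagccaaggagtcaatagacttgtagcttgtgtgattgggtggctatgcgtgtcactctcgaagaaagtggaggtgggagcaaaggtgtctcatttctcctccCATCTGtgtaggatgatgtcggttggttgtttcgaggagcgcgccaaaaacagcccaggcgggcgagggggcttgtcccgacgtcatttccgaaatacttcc
The windows of Cox7a1 and Cox8b held 4 and 1 CG dinucleotides, and those of Cox6a1, Cox7a2 and Cox8a held 26, 14 and 11, against a median of 6 over 32851 promoter windows. An E-box stood in the windows of Cox7a1 (CAAATG), Cox8b (CAGCTG, bases -19 to -14 from the start), Cox7a2 (CAAGTG) and Cox8a (CATCTG), and in 66.2% of all windows. The NRF-1 core, of a factor known for driving nuclear genes of respiration, was found at 2 places in the Cox6a1 window and in none of the other 4, and in 6.76% of all windows. The ETS core stood in the windows of Cox6a1 and Cox7a2 and in 12.03% of all windows. Searched on both strands, the letters TATAAA (12.4% of windows), AAGGTCA, a site of estrogen-related receptors (4.08%), and the MEF2 motif (2.92%) were not in these 5 windows. A match is a string of letters and not a shown site, and the adult cells are rat cells, whose promoters these are not.

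Levels are given as CPM, the counts of a gene over the 8 cells of a group, or in a single cell, scaled to a total of 1000000 over all listed genes. Brackets hold exact 95% intervals for counting error only, which treat each read as independent. Reads copied by PCR are not independent molecules, so these intervals may be too narrow even for counting error. No animal or culture is named in the labels, so each group counted as 1 sample, and no test or p-value between groups is given. Libraries differed between groups. Total counts ran from 88796 to 344224 in transplanted, from 16099 to 60789 in cultured and from 108546 to 223744 in adult cells. The count-weighted median exon length was 1950 to 2304 bases in transplanted, 3730 to 6983 in cultured and 2044 to 2353 in adult cells, and Rpph1, a nuclear noncoding RNA, took 2.51% to 5.48% of counts in cultured cells B to E against 0.0574% at most in every other cell. The 7 genes are short, with at most 1550 exon bases, so the shift in exon length moves with their levels, and its part in the results was not tested. Ratios to the cultured group are therefore also given without cells B to E, a setting chosen after the data were seen. It keeps cells A, F, G and H, and in F, G and H the cardiomyocyte genes Myh6, Tnnt2, Tnni3, Myl2 and Mb were at 0. Other cardiomyocyte genes with counts in the cultured group, such as Ttn, Myh7 and Ryr2, were not looked at by cell.

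The muscle forms were abundant in every transplanted and adult cell and nearly or wholly without counts in cultured cells. Cox6a2, the muscle form of subunit 6A, had 6101 CPM in the lowest transplanted cell, a median of 12361 and 17405 in the highest. In adult cells these values were 6946, 12839 and 16312 CPM. Cultured cells A to H had 15, 0, 11, 0, 1, 1, 0 and 0 counts, and the highest of them, cell A, stood at 757 CPM. Transplanted and adult cells overlapped over most of their range, and every one of them lay above all cultured cells. Over the groups, Cox6a2 was at 12337 CPM (12147 to 12529) in transplanted, 136 CPM (90.2 to 196) in cultured and 12483 CPM (12289 to 12678) in adult cells. Transplanted cells were thus 90.8-fold higher than cultured cells (62.8 to 137). The ratio was 177 without cultured cell A, 138 without cell C and 65.4 without cells B to E, which leave 16 cultured counts.

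Cox7a1, the muscle form of subunit 7A, had no count in any cultured cell. For a count of 0 the floor in that group was set at 14.6 CPM, which is 3 counts of its total, and the exact upper limit was 17.9 CPM. Lower bounds of ratios are taken to the floor and not to that limit. The lowest transplanted cell had 8753 CPM, the median was 10808 and the highest 15421. Adult cells ran from 6532 CPM over a median of 12625 to 16560. The groups of transplanted and adult cells overlapped, and cultured cells were apart from both. Against the floor, transplanted cells at 11155 CPM (10975 to 11338) were at least 767-fold higher than cultured cells, and at least 315-fold without cultured cells B to E.

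Cox8b, the muscle form of subunit 8, also had no count in cultured cells. Transplanted cells had 3448 CPM at the lowest, a median of 8356 and 11940 at the highest. Adult cells had 7435, 8598 and 13782 CPM. Transplanted cells E and H, at 3448 and 5235 CPM, were below every adult cell, and the other 6 lay within the adult range. Over the group, transplanted cells at 7199 CPM (7055 to 7347) were at least 495-fold higher than cultured cells, or at least 204-fold without cells B to E. Cox8b did not follow the other muscle forms in transplanted cell E, which had the highest Cox6a2 and the lowest Cox8b of its group.

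**Figure D1:**
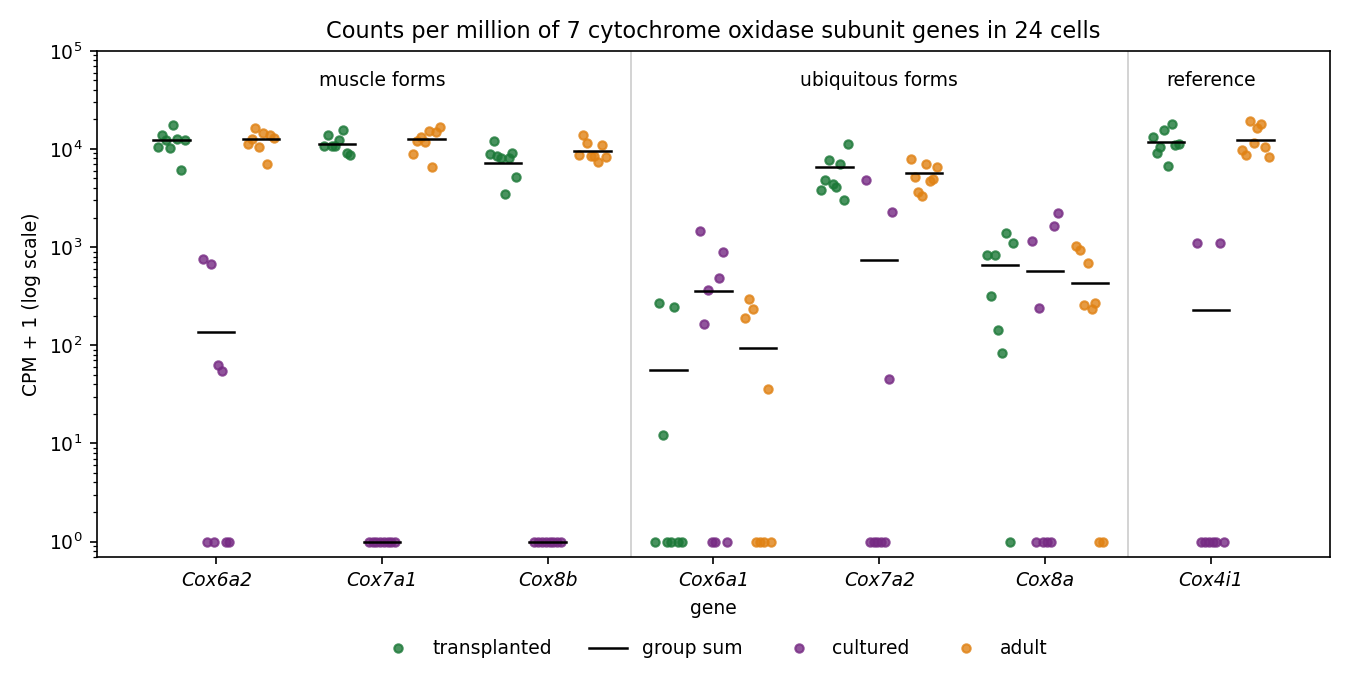
Level of each gene in every cell, as CPM + 1 on a log scale, with each point a cell and each black bar the CPM of the summed counts of its group. The muscle forms and Cox4i1 are in every transplanted and adult cell, Cox7a1 and Cox8b have no count in the 8 cultured cells, and Cox6a1 has cells at 0 in every group.

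The ubiquitous forms did not move as a group. Cox6a1, the ubiquitous form of subunit 6A, was lower in transplanted and adult cells than in cultured cells. Cultured cells A to H had 29, 10, 6, 0, 0, 9, 20 and 0 counts, transplanted cells 0, 33, 1, 0, 0, 37, 0 and 0, and adult cells 42, 35, 34, 0, 0, 0, 6 and 0. Counts of 0 occurred in every group, so all groups overlapped, and 70 of the 71 transplanted counts were in cells B and F. The levels were 54.5 CPM (42.6 to 68.7) in transplanted, 359 CPM (282 to 451) in cultured and 92.0 CPM (76.1 to 110) in adult cells. Cox6a1 was 6.59-fold lower in transplanted than in cultured cells (4.69 to 9.25), and 11.1-fold lower without transplanted cell B, 12.2-fold without F and 12.5-fold without cultured cells B to E. With every cell thinned to 16099 counts, the shallowest of all, a count would be expected in 2.16 transplanted, 4.95 cultured and 3.38 adult cells. As deposited, 3, 5 and 4 cells had one.

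Cox7a2, the ubiquitous form of subunit 7A, went the other way. Transplanted cells had 3035 CPM at the lowest, a median of 4616 and 11115 at the highest, and adult cells had 3295, 5053 and 7906 CPM. Cultured cells A, G and H had 96, 1 and 54 counts and the other 5 had none. Cultured cell A, at 4846 CPM, stood within the range of both other groups, and the other 7 lay below them. Over the groups the levels were 6522 CPM (6384 to 6662), 732 CPM (620 to 859) and 5622 CPM (5493 to 5754) in transplanted, cultured and adult cells. Transplanted cells were 8.90-fold higher than cultured cells (7.58 to 10.5). The ratio was 22.1 without cultured cell A and 3.66 without cells B to E.

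Cox8a, the ubiquitous form of subunit 8, was present at a low level in all groups. Its counts were 118, 39, 74, 22, 16, 209, 0 and 383 in transplanted cells A to H, 23, 0, 4, 0, 0, 0, 37 and 53 in cultured cells and 227, 109, 37, 106, 33, 29, 0 and 0 in adult cells. All 3 groups overlapped from 0 upward, and cultured cells G and H, at 1633 and 2219 CPM, were above every other cell of the series. The levels were 661 CPM (617 to 707) in transplanted, 567 CPM (469 to 680) in cultured and 425 CPM (390 to 463) in adult cells. The direction of Cox8a between transplanted and cultured cells turned with the setting, from a ratio of 1.16 (0.959 to 1.43) to 2.20 with TMM factors, 1.88 without cultured cell H, 0.894 with equal cell weights and 2.02-fold lower without cultured cells B to E.

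Cox4i1, the reference, was no constant background between the groups. It had 6723 CPM in the lowest transplanted cell, a median of 11037 and 17951 in the highest, and 8346, 11019 and 19454 CPM in adult cells. Cultured cells A and G had 22 and 25 counts, 1111 and 1103 CPM, and the other 6 had none. Every transplanted and adult cell lay above all cultured cells. Over the groups Cox4i1 stood at 11802 CPM (11616 to 11990), 228 CPM (167 to 303) and 12243 CPM (12052 to 12437) in transplanted, cultured and adult cells. The ratio of transplanted to cultured cells was 51.8 (38.9 to 70.5), and 88.0 without cultured cell A, 98.4 without G and 21.3 without cells B to E.

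Between transplanted and cultured cells, 5 of the 7 genes were at least 2-fold higher in transplanted cells, the 3 muscle forms, Cox7a2 and Cox4i1, and 1, Cox6a1, was at least 2-fold lower. Of 4958 genes with at least 10 counts over both groups, 22.5% passed that fold upward and 64.0% downward. Among the 464 of those genes with no more exon bases than Cox4i1, 47.8% passed it upward and 28.2% downward. The 4 genes for which all 8 transplanted cells lay above all 8 cultured cells were the 3 muscle forms and Cox4i1, against 1.33% of the 4958 genes. This last share is over genes of all lengths and was not taken for short genes alone. The median log2 ratio was 8.95 over the muscle forms, with Cox7a1 and Cox8b at their lower bounds, 0.22 over the ubiquitous forms and -4.53 over all 4958 genes. TMM factors shifted every log2 ratio of this comparison by 0.92 and made 6 genes at least 2-fold higher, Cox8a being the sixth.

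Adult cells set against the same cultured cells gave the same 5 genes higher and the same 1 lower, where the backgrounds were 23.0% and 62.1% of 5132 genes, and 46.3% and 31.3% of the 451 no longer than Cox4i1. This comparison shares its cultured cells with the previous one, so the 2 sets of ratios are not independent. Cox6a2 was 91.9-fold higher (63.6 to 138), Cox7a1 at least 866-fold and Cox8b at least 659-fold. Cox7a2 was 7.68-fold higher (6.53 to 9.08), Cox4i1 53.7-fold higher (40.4 to 73.1) and Cox6a1 3.90-fold lower (2.88 to 5.26). Cox8a was 1.33-fold lower (1.08 to 1.63), but its ratio was 1.21 without cultured cell H and 1.42 with TMM factors, in the other direction. Cultured cell A alone set much of 3 values: without it the ratios were 179 for Cox6a2, 19.1 for Cox7a2 and 91.3 for Cox4i1. The Cox6a2 ratio was 139 without cell C, and that of Cox4i1 was 102 without cell G. Without cells B to E the ratios of Cox6a2, Cox7a2 and Cox4i1 were 66.2, 3.16 and 22.1, the bounds for Cox7a1 and Cox8b were 356 and 271, Cox6a1 was 7.43-fold lower and Cox8a 3.13-fold lower. The same 4 genes as before had all 8 adult cells above all 8 cultured cells, against 1.27% of genes of all lengths.

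Adult rat and transplanted mouse cells were close for all 7 genes. With all cells in, none reached a 2-fold difference in either direction, where 44.3% of 3501 measured genes passed it upward and 34.8% downward in adult cells. Of the 443 genes no longer than Cox4i1, 27.1% and 29.1% did. The ratio of adult to transplanted cells was 1.01 for Cox6a2 (0.990 to 1.03), 1.13 for Cox7a1 (1.10 to 1.15), 1.33 for Cox8b (1.30 to 1.37) and 1.04 for Cox4i1 (1.01 to 1.06). It was 0.862 for Cox7a2 (0.835 to 0.890), but 1.15, in the other direction, without transplanted cell H. Cox8a was 1.55-fold lower in adult cells (1.39 to 1.73), and 2.21-fold lower, past the threshold, without adult cell A. Cox6a1 was 1.69-fold higher (1.25 to 2.30), and past the threshold without transplanted cell B (2.85), transplanted cell F (3.12) or adult cell H (2.02). The cells of both groups overlapped for every gene, so none of these ratios separates the groups, and without replicate animals it is unknown how much animals differ.

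**Figure D2:**
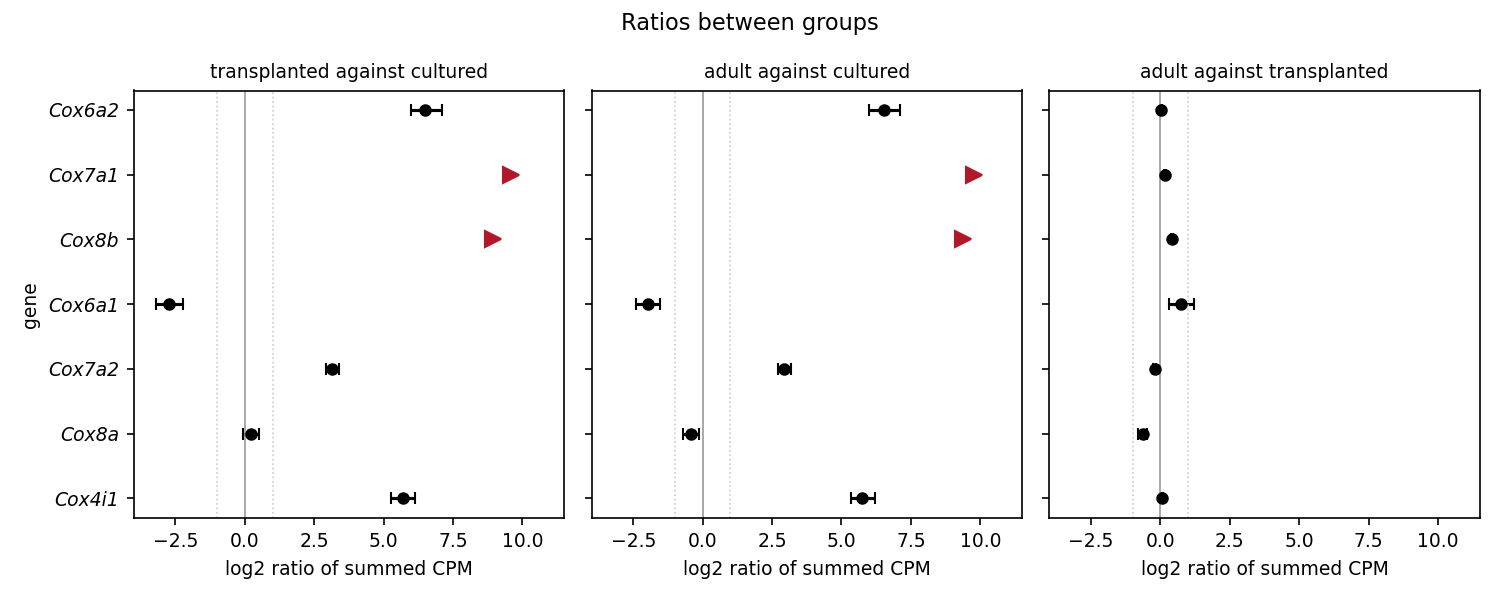
Log2 ratio of the summed CPM for each gene in the 3 comparisons, with exact 95% counting intervals as bars, red triangles for lower bounds against a cultured count of 0 and dotted lines at a 2-fold difference. Cox6a1 is the gene whose interval lies wholly below a 2-fold decrease against cultured cells, and in the right panel every point lies between the dotted lines.

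The balance within each pair, the muscle form as a share of the counts of both forms, does not depend in a single cell on the scaling of libraries. Group shares are of summed counts, so cells with more counts weigh more in them. For subunit 6A nearly all paired counts of transplanted and adult cells were of the muscle form. Cox6a2 made up 99.6% of paired counts in transplanted cells (99.4 to 99.7), 99.3% in adult cells (99.1 to 99.4) and 27.5% in cultured cells (19.1 to 37.2, 28 of 102 counts). No single transplanted or adult cell was under 97.7%, and 5 transplanted and 4 adult cells had no Cox6a1 count. In cultured cells the share was 34.1% of 44 counts in A, 0 of 10 in B, 64.7% of 17 in C, 1 of 10 in F and 0 of 20 in G, while cell E had a single count of Cox6a2, and D and H had no count of either. These shares rest on few reads, and the interval was 38.3 to 85.8 for the 17 counts of cell C.

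For subunit 7A both forms were present together. Cox7a1 made up 63.1% of paired counts in transplanted cells (62.5 to 63.7) and 69.1% in adult cells (68.5 to 69.7). In cultured cells it was 0 of 151 counts, with an exact upper limit of 2.41%. Transplanted cells ran from 44.1% in H over a median of 72.6% to 75.1% in G, and adult cells from 53.1% in A over 70.7% to 78.3% in C. Cox7a2 was thus the larger of the pair by counts in 1 of these 16 cells, transplanted H. Without that cell, which has the most counts of all, the transplanted share was 71.2%. Per kilobase of exon, the Cox7a1 share was 75.1% in transplanted and 79.8% in adult cells.

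For subunit 8 the muscle form dominated with a small remainder of the ubiquitous form. Cox8b made up 91.6% of paired counts in transplanted cells (91.0 to 92.1) and 95.8% in adult cells (95.4 to 96.1). In cultured cells it was 0 of 117 counts, with an exact upper limit of 3.10%. Transplanted cells ran from 82.5% in H to 100% in G, with a median of 94.4%, and adult cells from 89.5% in A to 100% in G and H, with a median of 96.9%. Over all 3 pairs, muscle forms held 80.9% of paired counts in transplanted (80.6 to 81.3), 7.57% in cultured (5.09 to 10.8) and 85.0% in adult cells (84.6 to 85.3). The cultured share was 4.87% without cell C, which held 11 of its 28 muscle-form counts.

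**Figure D3:**
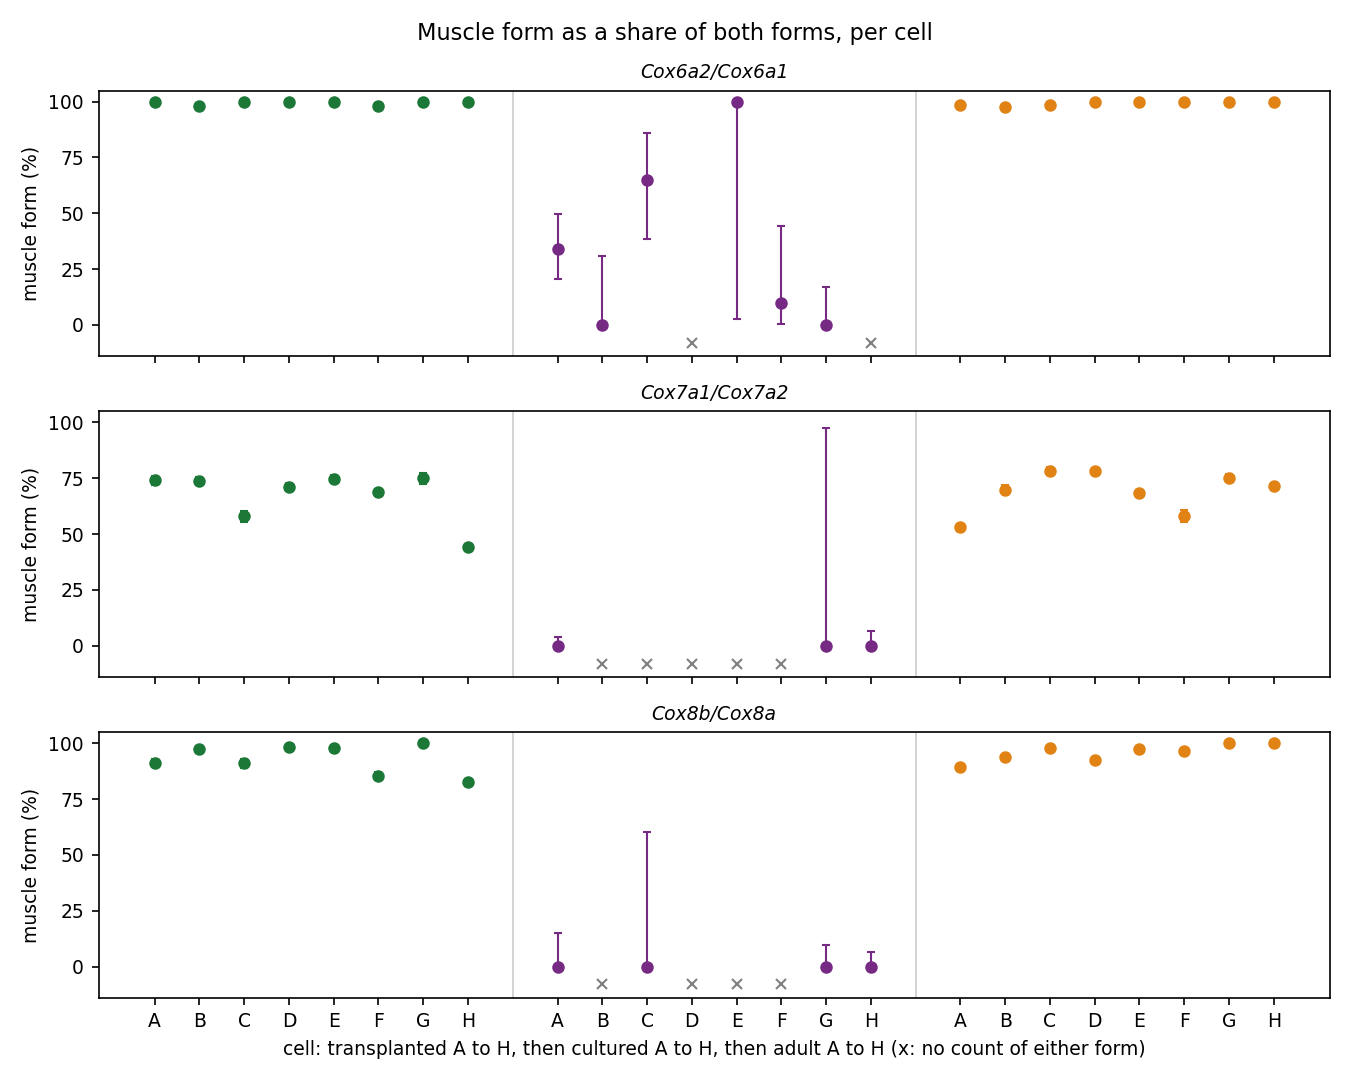
Muscle form as a percentage of the counts of both forms of a pair in each of the 24 cells, with exact 95% Clopper-Pearson intervals as bars and a grey cross where a cell had no count of either form. The COX6A share lies between 97.7% and 100% in all transplanted and adult cells, the COX7A share between 44.1% and 78.3%, and the cultured cells with counts lie at 0 for COX7A and COX8.

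Cells with relatively more Cox7a2 also tended to have relatively more Cox8a in the transplanted group. Transplanted H had the lowest share of both muscle forms, 44.1% for Cox7a1 and 82.5% for Cox8b, and G had the highest of both, 75.1% and 100%. Adult cell A was likewise the lowest in its group for both, at 53.1% and 89.5%. Spearman's rho between both shares was 0.81 over the 8 transplanted cells and 0.44 over the 8 adult cells, as a description in which the shares of a cell come from the same library. Transplanted H and adult A were the deepest libraries of their groups, with 344224 and 223744 counts, yet over all cells of a group the rho of the Cox7a1 share with the total count was -0.21 and 0.07.

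**Figure D4:**
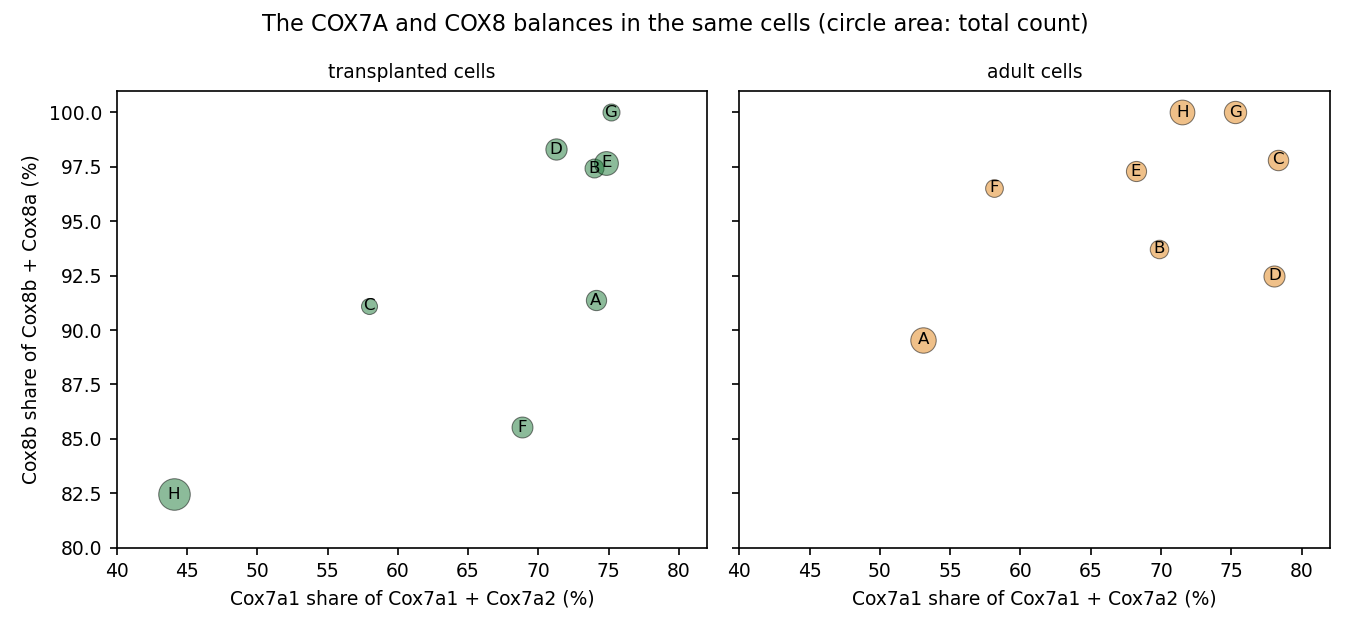
Cox7a1 share of the COX7A pair (x axis) against Cox8b share of the COX8 pair (y axis), both in percent of counts, with 1 circle per cell and circle area in proportion to its total count. Axes start at 40% and 80%. Transplanted H, at 44.1% and 82.5%, and adult A, at 53.1% and 89.5%, lie at the lower left of their panels.

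Levels of different genes were compared per kilobase of exon. In transplanted cells the order was Cox7a1, Cox8b, Cox6a2, Cox4i1, Cox7a2, Cox8a and Cox6a1, from 20851 CPM per kilobase down to 77.6. Neighbours among the first 3 were not separated, since Cox7a1 lay above Cox8b in 3 of 8 cells and Cox8b above Cox6a2 in 6. Cox6a2 lay above Cox4i1 in 8 of 8 cells, Cox4i1 above Cox7a2 in 5, and Cox7a2 above Cox8a in 8. In adult cells Cox8b led with 26632 CPM per kilobase, above Cox7a1 in 6 of 8 cells, and the remaining order was the same. In cultured cells Cox8a led with 917, followed by Cox7a2 with 776, Cox6a1 with 511, Cox6a2 with 200 and Cox4i1 with 147. With the length of the main transcript in place of all exons, Cox7a1 led in adult cells, Cox7a2 led in cultured cells, and Cox4i1 stood above Cox6a2 there. All other positions held.

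Relative to Cox4i1, the muscle forms gave more counts than the ubiquitous forms in both heart groups. Cox6a2 gave 1.05 counts per Cox4i1 count in transplanted and 1.02 in adult cells, Cox7a1 0.945 and 1.03, and Cox8b 0.610 and 0.783. Cox7a2 gave 0.553 and 0.459, Cox8a 0.0560 and 0.0348, and Cox6a1 0.00462 and 0.00752. Per kilobase of exon these values for Cox6a2, Cox7a1 and Cox8b were 2.38, 2.74 and 2.63 in transplanted and 2.32, 2.98 and 3.37 in adult cells, and per kilobase of the main transcript 1.15, 1.79 and 1.26, and 1.12, 1.95 and 1.62. Single cells varied widely around the values by counts: Cox6a2 ran from 0.561 in transplanted G to 2.59 in E, and Cox7a1 from 0.367 in adult F to 1.98 in adult H. Of the cultured cells, A and G had Cox4i1 counts, 22 and 25. In A there were 4.36 counts of Cox7a2, 1.05 of Cox8a, 1.32 of Cox6a1 and 0.682 of Cox6a2 per Cox4i1 count, and in G 0.04, 1.48, 0.8 and 0. In both these cells Cox8a exceeded the reference, and Cox7a2 and Cox6a1 did so in A.

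**Figure D5:**
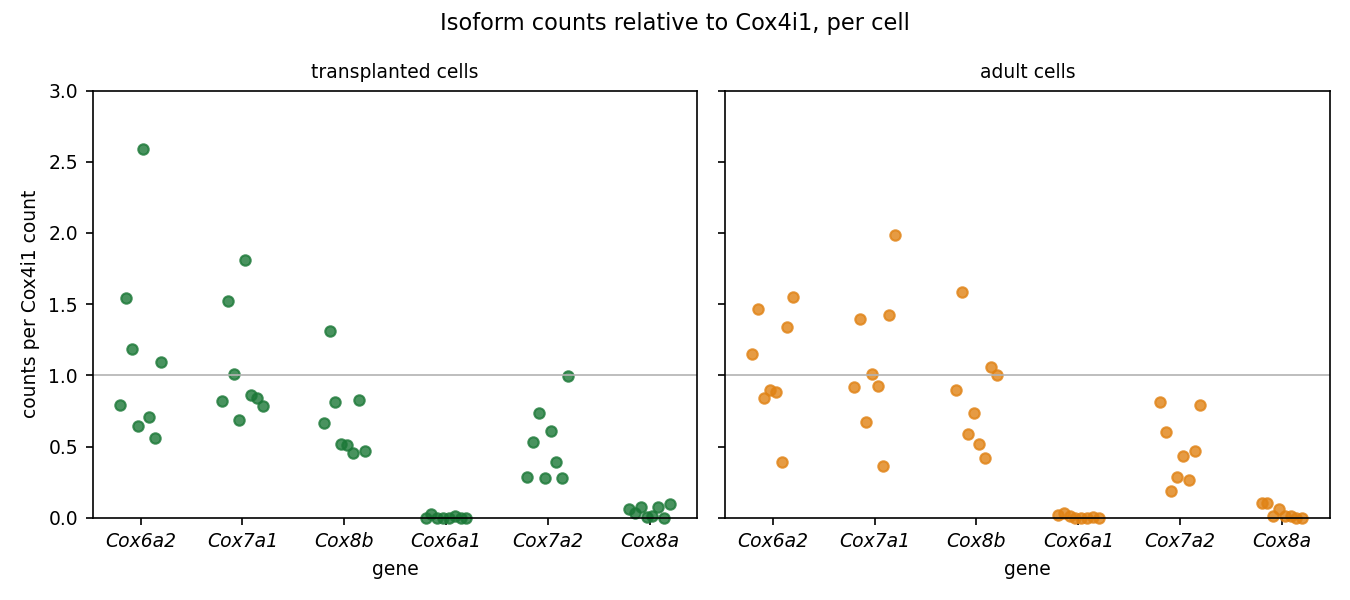
Counts of each isoform gene per Cox4i1 count in single transplanted (left) and adult (right) cells, with each point a cell and a grey line at 1. Cox6a2 and Cox7a1 have cells on both sides of the line. Cox8b is above it in transplanted cell B (1.31) and in adult cells B (1.59), G (1.06) and H (1.002). Cox7a2 is below it in every cell, with a highest value of 0.993 in transplanted H, and Cox8a and Cox6a1 lie near 0.

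Among the muscle forms themselves, Cox6a2 and Cox7a1 ranked alike over cells, with a rho of their CPM of 0.64 over 8 transplanted and 0.76 over 8 adult cells. Cox6a2 and Cox8b did not, with a rho of -0.33 and 0.40, nor did Cox7a1 and Cox8b, with a rho of 0.024 in each group. Over all 24 cells the genes whose CPM ranked most like the sum of the muscle forms, out of 331 genes with a count in at least 12 cells, were Pln, the brake on the calcium pump of the heart (rho 0.85), Ndufa4, a subunit of complex IV (0.83), Fabp3, the heart fatty acid binding protein (0.82), Ndufa3, of complex I (0.82), and Mb, myoglobin (0.81). For the sum of the ubiquitous forms they were Cox17, which carries copper to complex IV (0.79), Uqcrb, of complex III (0.78), Fkbp3 (0.76), Ndufa12 (0.75) and Ndufa7 (0.74). Over the 16 transplanted and adult cells alone, these rhos were 0.39 to 0.55 and 0.53 to 0.69. The values share libraries and depth and are descriptions.

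The rest of complex IV was also higher outside culture. Of 12 further subunit genes 10 were listed and 8 had enough counts, and 7 of these 8 were at least 2-fold higher in transplanted than in cultured cells, with a median log2 ratio of 4.25, where 22.5% of all measured genes and 47.8% of those no longer than Cox4i1 were. In adult against cultured cells 7 of 8 were higher too (median 4.13), against 23.0% and 46.3%, and none of the 8 was 2-fold lower in either. The list also holds genes longer than Cox4i1, such as Cox6c, so the background of short genes does not match all of it. The 3 with the most counts summed over all cells were Ndufa4, at 8522, 500 and 8993 CPM in transplanted, cultured and adult cells, Cox7b, at 7157, 441 and 7486, and Cox6c, at 7439, 320 and 6741. Cox6b1, the fourth by that sum, stood at 7372, 349 and 5830 CPM, above Cox7b in transplanted and above Cox6c in cultured cells, and per kilobase of exon it was above all 3 in each group. The subunit gene that was not 2-fold higher was Cox7a2l, which encodes a relative of the COX7A proteins that serves in respiratory supercomplexes, at 343, 223 and 125 CPM. It was 2.74-fold lower in adult than in transplanted cells (2.28 to 3.31), and the other 7 differed by less than 2-fold there. Testis or lung forms of other subunits, Cox6b2 and Cox4i2, had 5 and 7 counts, each in 1 cultured cell.

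Genes for assembly of the complex and delivery of copper were counted in the same way. Of 24 such genes 23 were listed, and 9 of 16 measured were at least 2-fold higher and 2 lower in transplanted than in cultured cells, and 12 of 17 higher and 1 lower in adult than in cultured cells. Of all measured genes, 22.5% were higher and 64.0% lower in transplanted cells, and 23.0% and 62.1% in adult cells. Among genes no longer than Cox4i1, 47.8% and 46.3% were higher, but the list also holds longer genes, such as Cox17. Between adult and transplanted cells 7 of 19 were higher and 5 lower, where 44.3% and 34.8% of all measured genes were. Of the 3 with the most counts over all cells, Cox17 was at 1763, 72.8 and 2387 CPM in transplanted, cultured and adult cells, Cox14 at 715, 38.8 and 591, and Cox20, which aids the maturation of a core subunit, at 281, 184 and 727.

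Other enzymes with a muscle and a more widespread form gave shares that can be set beside these. Slc25a4, the ADP/ATP carrier of heart and muscle, made up 96.1% of its counts with Slc25a5 in transplanted (95.8 to 96.3), 58.6% in cultured (49.6 to 67.2, and 9.09% to 100% over the 6 cells with counts) and 92.2% in adult cells (91.9 to 92.5). Pgam2, the muscle form of a glycolytic mutase, held all 6298 transplanted and all 4840 adult counts of its pair with Pgam1, and 40 of 41 cultured counts, which came from 2 cells. Counts of the Cpt1b and Cpt1a pair were too few, at 4 in a group at most, and the pairs of Ckmt2 and Eno3 were not analysed here. Cultured cells with counts numbered 6 for the Slc25a4 pair and 2 for the Pgam2 pair, and 6, 3 and 4 for the COX6A, COX7A and COX8 pairs. How far these cells coincide was not looked at, and cultured shares are not compared between genes.

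The label of the cells was checked against 12 cardiomyocyte genes, which took 12.8% to 21.5% of counts in transplanted, 14.1% to 18.3% in adult and 0% to 17.5% in cultured cells. Of the 12, 8 were at least 2-fold higher and 4 lower in transplanted than in cultured cells, and 8 higher and 3 lower in adult than in cultured cells. Of all measured genes, 22.5% were higher and 64.0% lower in the first comparison, and 23.0% and 62.1% in the second. The 4 lower in transplanted cells were Ttn, Myh7, Ryr2 and Myh6. Ttn, the giant spring protein of the sarcomere, gave 9301 of the 10659 cultured counts of the list, against 2777 in transplanted and 5158 in adult cells, and Myh7 and Ryr2 had 216 and 194 cultured counts. Myh6, Tnnt2, Tnni3, Myl2 and Mb, 5 genes looked at by cell, were all at 0 in cultured cells F, G and H, and Actc1 in G and H. Those 3 cells held 1 of the 28 muscle-form counts and 174 of the 342 ubiquitous-form counts of the cultured group. Cell A was the cultured cell with counts of all 6 genes looked at and held 15 of the muscle-form counts, and C, with 175 counts of Myh6, held 11, while B and D, with 73 and 300 counts of Myh6, held none. Their part in the balance was not tested. Muscle forms of cytochrome oxidase also occur in skeletal muscle and brown fat. Of 10 skeletal muscle genes 3 were listed: Tnnt3 and Tnnc2 had no count, and Tnni2 had 84, 0 and 348 counts in transplanted, cultured and adult cells, at most 0.156% of a cell. Of 8 fat cell genes 2 were listed, Fabp4 with 217, 0 and 0 counts and Cidea with 0, 0 and 547. Listed genes of fibroblasts (6 of 8), endothelium (3 of 7), smooth muscle and pericytes (5 of 6) and macrophages (1 of 6) each took at most 0.00901% of any transplanted or adult cell and at most 0.109% of any cultured cell, with Col3a1, Dcn, Postn, Cdh5 and Kdr at 0 throughout. Those with cultured counts were Pdgfra (41), Col1a2 (16), Cd68 (21), Rgs5 (10), Cnn1 (5), Pdgfrb (4) and Cspg4 (1), and of these Rgs5 alone had counts elsewhere, 3 in each other group. Their part in the balance was not tested. Of 5 pluripotency genes 2 were listed, Nanog with 0, 1 and 0 counts and Sox2 with 212, 26 and 2319.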

How the data were processed

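Single cells were either picked by hand or sorted by flow cytometry, and their RNA was copied into cDNA by template switching, amplified by PCR, cut with Tn5 and sequenced, per the labels' protocols. The values are the deposited whole-number counts per gene and cell, and with no molecular identifiers stated they count reads. Per the submitters' processing notes, TopHat2 2.1.0, HTSeq, DESeq2 and the build mm10 were used, also for rat cells. The sources used here do not give their roles, the annotation or the strand setting. Reads of rat transcripts that differ from the mouse build may be lost, which could lower adult counts by an amount that varies between genes, which was not tested.

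Totals are of the 9595 listed genes, of which 692 had no count in any cell. Group membership followed the sample titles. Counts were summed over the 8 cells of a group and scaled to CPM. CPM carry exact Poisson intervals, ratios exact conditional binomial intervals and shares exact Clopper-Pearson intervals, at 95%. The floor for a group without counts was 3 counts over the group. A gene was measured with at least 10 counts over both groups, and the threshold for a difference was 2-fold. The ratio function and its interval were tested on simulated independent counts for transplanted against adult cells. The intervals of CPM and of shares were not tested on their own. Exon lengths are unions of GENCODE M21 exons, and 99.2% of gene symbols matched. Promoters came from RefSeq. All 7 genes are named by rule, with the 3 genes of most counts over all cells in each of 2 further complex IV lists and the 5 genes most like each sum of forms, and with Cox7a2l, Cox6b1, Cox6b2 and Cox4i2, which were chosen after their values were seen. Genes and lists were chosen with earlier results of these data known. Other settings tried were scaling by edgeR 4.0.16 TMM factors or DESeq2 1.42.0 size factors, with no model fitted, a total without Rn45s and Rpph1, equal cell weights, other backgrounds, lengths of the main transcript, and leaving out each cell or cultured cells B to E. Software was Python 3.11.15 with scipy 1.17.1 and R 4.3.3.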

Additional observations from a re-analysis of the deposited data

Results flagged for a closer look

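Cultured cell A stood far from the others of its group for Cox7a2, at 4846 CPM, with the nearest cell, H, at 2261 CPM and 5 cells at 0. The check was made on 29 groups of 8 values, each a gene or a share in one group, and this was the 1 that passed it. For normally distributed values, chance alone passes about 1 in 20. That rate need not hold for a group with 5 cells at 0.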

How the results depend on the processing

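The muscle-form share of all paired counts moved with the length scale, to 88.0% in transplanted and 91.0% in adult cells per kilobase of all exons and to 85.6% and 89.1% per kilobase of the main transcript. With equal cell weights it was 83.3% in transplanted and 24.5% in cultured cells, where cell E counts as 100% from a single count. Leaving out 1 cell gave 79.6% to 85.6% in transplanted, 4.87% to 10.6% in cultured and 84.1% to 86.7% in adult cells, and leaving out cultured cells B to E gave 4.73%. Under each of these settings both other groups lay above the cultured group. The number of the 7 genes at least 2-fold higher in adult than in transplanted cells was 0, and 1, Cox6a1, without adult cell H, transplanted cell B or transplanted cell F. Without adult cell A, Cox8a was 2.21-fold lower in adult cells. In both comparisons with cultured cells it was 5 under every setting but TMM factors, which gave 6 for transplanted cells. Cultured cells gave 206178 counts in all against 1302871 and 1271528 in transplanted and adult cells, and the 7 genes took 0.202% of them against 4.97% and 5.30%, so the 417 cultured counts of the 7 genes limit every ratio to that group. No paired analysis was possible because letters only name cells and no result comes from a test.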
